A study of Homo sapiens with 9 samples.

Results

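SCG2, SLIT3, IL7R and DKK3 are 4 human genes that code for proteins released from the cell or placed on its surface, and their RNA was followed in ES-2 cells depleted of IGF2BP1 or SRF. The 4 genes were chosen by measured values, as genes with clear increases upon IGF2BP1 depletion, out of 58174 genes in the tables. Their values in that comparison are therefore given as a description with no test. The siSRF libraries were not used in the choice, and SRF depletion was tested. That test is not free of the choice, because the siC libraries entered both. Genes picked in part for low siC values may lean upward in it. ES-2 is an established line derived from an ovarian cancer. Cells were transfected with a control siRNA (siC) or with siRNA pools directed against IGF2BP1 (siIGF2BP1) or SRF (siSRF), and total RNA was harvested after 72 h and depleted of ribosomal RNA, with 3 libraries per group and no other treatment. One line was used, each target was depleted by a single pool, and both depletions were set against the same 3 siC libraries. The labels do not say whether the replicates were separate cultures, so the errors and p-values cover the spread between these libraries, which may be technical.

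IGF2BP1 is an oncofetal RNA-binding protein that stabilizes many mRNAs, and SRF is a transcription factor that binds the CArG box. SCG2 encodes secretogranin II, a granin stored in the dense-core vesicles of neurons and neuroendocrine cells and cut into peptides such as secretoneurin. SLIT3 encodes a large secreted ligand of the ROBO receptors, known from axon and vessel guidance. IL7R encodes the alpha chain of the receptor for IL-7, which with a different partner chain also binds TSLP, and it is best known from developing lymphocytes. DKK3 encodes a secreted and divergent member of the Dickkopf family, of which DKK1 blocks Wnt co-receptors.

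Between 6421764 and 9416175 reads per library were assigned to genes, with a median of 7377934. The targeted RNAs were low where the labels place them. IGF2BP1 had a mean level of 12.8 FPKM in siC and 4.11 FPKM in siIGF2BP1, and SRF a mean of 14.5 FPKM in siC and 1.47 FPKM in siSRF. SRF was also lower upon IGF2BP1 depletion, with a mean of 6.01 FPKM, while IGF2BP1 had a mean of 14.2 FPKM in siSRF and was not called (limma adjusted p = 0.119). Of the markers of an epithelial line, KRT7, KRT8 and KRT18 were present, but EPCAM, CDH1 and KRT19 were at or near 0 in every group, as was the ovarian tumor antigen MUC16, while the mesenchymal marker VIM was abundant, with a mean of 1055 FPKM in siC.

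The genes differ widely in size. In GENCODE 44 on GRCh38, SCG2 (ENSG00000171951, chr2:223596940-223602361, minus strand) spans 5.4 kb with 2 exons, SLIT3 (ENSG00000184347, chr5:168661740-169301139, minus strand) spans 639.4 kb with 36 exons, IL7R (ENSG00000168685, chr5:35852695-35879603, plus strand) spans 26.9 kb with 8 exons and DKK3 (ENSG00000050165, chr11:11956207-12009769, minus strand) spans 53.6 kb with 7 exons. Their proteins have 617, 1523, 459 and 350 residues, in that order. The RNA lengths by which the authors divided reads were 2719, 14260, 6060 and 5059 bases. The same number of reads therefore stands for a lower FPKM at SLIT3 than at SCG2.

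RefSeq promoter sequences of GRCh38.p14 ran from 250 bases before to 50 bases after a start site. They were at hand for 2 of the 4 genes only, IL7R and SLIT3, which is why these are shown. Upon SRF depletion IL7R was called higher and SLIT3 was not called, but a difference between them was not tested. The motifs found on either strand are in capitals, and their part in the levels was not tested. The IL7R window lies at chr5:35856641-35856940 on the plus strand, inside the longer gene span of GENCODE, and the SLIT3 window at chr5:169301090-169301389 on the minus strand.
IL7R: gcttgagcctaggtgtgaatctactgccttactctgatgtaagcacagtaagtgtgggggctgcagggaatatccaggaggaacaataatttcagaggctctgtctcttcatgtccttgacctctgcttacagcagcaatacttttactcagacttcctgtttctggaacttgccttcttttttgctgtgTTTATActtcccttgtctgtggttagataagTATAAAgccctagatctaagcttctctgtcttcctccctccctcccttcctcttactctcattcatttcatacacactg
SLIT3: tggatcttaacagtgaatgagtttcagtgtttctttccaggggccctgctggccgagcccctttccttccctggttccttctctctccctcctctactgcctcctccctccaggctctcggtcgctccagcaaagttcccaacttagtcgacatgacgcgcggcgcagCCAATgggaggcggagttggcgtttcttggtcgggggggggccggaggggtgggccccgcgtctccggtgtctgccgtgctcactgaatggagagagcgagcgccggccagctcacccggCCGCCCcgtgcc
The IL7R window had 44.3% GC and held the letters TATAAA on the plus strand 29 bases before the start site and on the minus strand 60 bases before it. The SLIT3 window had 64.7% GC and held CCAAT 82 bases before the start site and GGGCGG on the opposite strand 38 bases after it. TATAAA occurred in 11.5% of the 35116 RefSeq promoter windows, CCAAT in 34.6% and GGGCGG in 45.0%. Neither window held a CArG box, which 1.29% of all windows did, nor TGANTCA, which occurred in 7.71%, nor TGACGTCA, which occurred in 1.85%. None of these searched motifs overlapped another in the windows shown. The absence of these letters says nothing about binding of a factor elsewhere at the genes.

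An intron of SLIT3 holds MIR218-2, the source of the miRNA miR-218-5p (chr5:168768211-168768231, minus strand), shown because it is transcribed on the same strand as its host. Its seed, bases 2 to 8, is in capitals.
hsa-miR-218-5p: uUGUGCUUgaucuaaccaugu
Mature miRNAs were not measured in these libraries. The row of the precursor held no read in siC, 1, 1 and 0 reads in the siIGF2BP1 libraries and 3, 0 and 0 reads in the siSRF libraries, too few for a comparison.

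SCG2 was close to silent in control cells and was among the better expressed genes upon IGF2BP1 depletion. Its level was 0.613, 0.433 and 0.356 FPKM in the siC libraries, from 11, 8 and 7 reads. In siIGF2BP1 it was 19.9, 18.7 and 19.1 FPKM, from 415, 370 and 441 reads. Every siIGF2BP1 library was far above every siC library. The means were 0.467 ± 0.132 FPKM (SD, n = 3) and 19.2 ± 0.630 FPKM (SD, n = 3), a 41.2-fold difference, and the log2 fold change on the scale of log2(FPKM + 0.1) was 5.12 with a standard error of 0.17. This was the largest of 12512 protein-coding genes fitted. The low siC level rests on 26 reads over the 3 libraries, for which counting error alone gives a 95% Poisson interval of 17.0 to 38.1 reads, against 1226 reads with an interval of 1158 to 1297 in siIGF2BP1. In bulk RNA, more cells with the transcript and more transcript per cell cannot be told apart.

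SLIT3 was low in control cells and rose in every siIGF2BP1 library. The siC libraries gave 1.94, 1.99 and 2.0 FPKM and the siIGF2BP1 libraries 15.4, 13.2 and 15.3 FPKM. The groups lay far apart, with the siIGF2BP1 libraries less tight than the controls. The means were 1.98 ± 0.0295 FPKM and 14.7 ± 1.23 FPKM (SD, n = 3 each), a 7.41-fold difference, with a log2 fold change of 2.83 and a standard error of 0.09, rank 12 of 12512. Owing to its long RNA, SLIT3 was counted by 183, 193 and 206 reads in siC, so its low control level was measured more closely than that of SCG2.

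IL7R was of moderate abundance before any depletion. It stood at 8.57, 7.48 and 8.81 FPKM in siC and at 40.6, 44.1 and 41.9 FPKM in siIGF2BP1. The lowest siIGF2BP1 library was well above the highest control. The means were 8.29 ± 0.709 FPKM and 42.2 ± 1.76 FPKM (SD, n = 3 each), 5.09-fold apart, and the log2 fold change was 2.34 with a standard error of 0.07, rank 37 of 12512.

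DKK3 was abundant throughout and had the smallest fold but the largest gain of the 4 genes. It was at 75.4, 77.1 and 83.0 FPKM in siC and at 211, 208 and 218 FPKM in siIGF2BP1. All siIGF2BP1 libraries were above the controls. The means were 78.5 ± 3.96 FPKM and 212.6 ± 5.32 FPKM (SD, n = 3 each), 2.71-fold apart, with a log2 fold change of 1.44 and a standard error of 0.05, rank 187 of 12512. On the linear scale DKK3 gained 134 FPKM, rank 8 among the same genes, while IL7R gained 33.9 FPKM (rank 65), SCG2 18.8 FPKM (rank 151) and SLIT3 12.7 FPKM (rank 219).

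**Figure D1:**
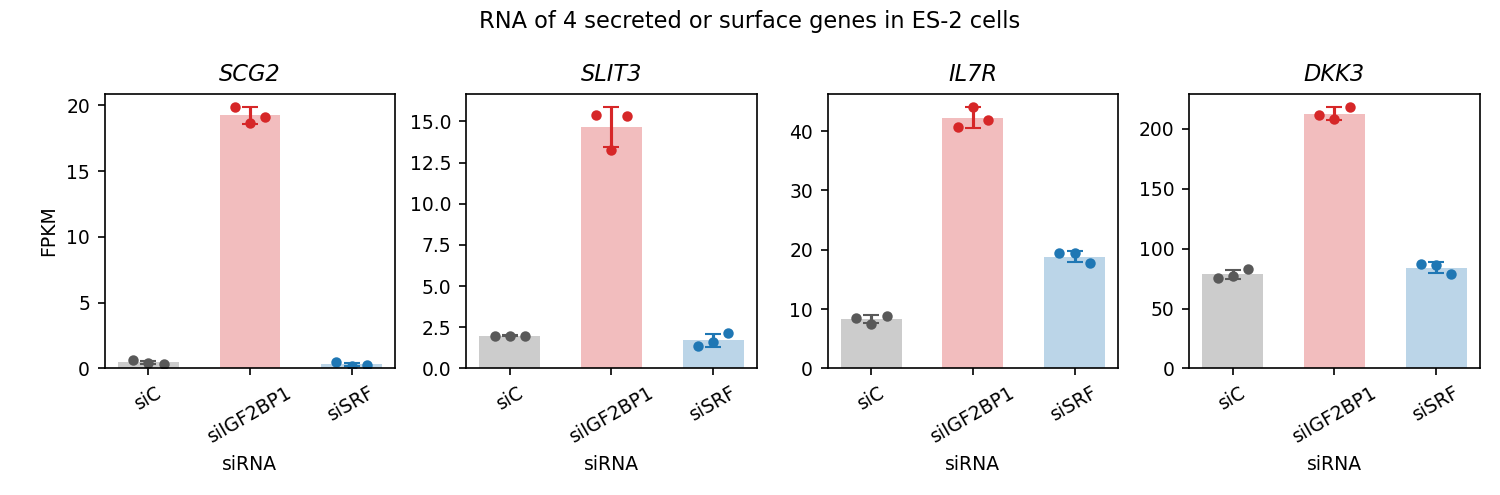
FPKM of the 4 genes in the 9 libraries by siRNA, each panel with its own linear axis from 0. Points are libraries, bars are means and error bars are SD (n = 3). All 4 genes stand high in siIGF2BP1, and only IL7R has all 3 siSRF libraries, with a mean of 18.8 FPKM, above its siC libraries.

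The fold in siIGF2BP1 and the level in siC ran in opposite order among the 4 genes. The siC level is the denominator of the fold on which they were chosen, so this order was favoured in advance. Of the 12512 protein-coding genes fitted, 448 had at least a 2-fold higher level in siIGF2BP1 on the log2 scale, 68 at least 4-fold, 9 at least 8-fold, 2 at least 16-fold and 1, SCG2, at least 32-fold. At an adjusted p of at most 0.01 by limma on log2 FPKM, 3.55% of all 22292 genes tested were called higher (792 genes) and 3.57% lower. The 4 genes were chosen for their rise in this comparison, so no call is given for them. In what follows, called refers to this fit unless limma-voom is named. By limma-voom on the recovered read numbers, 8.59% of all genes were called higher and 8.48% lower.

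**Figure D2:**
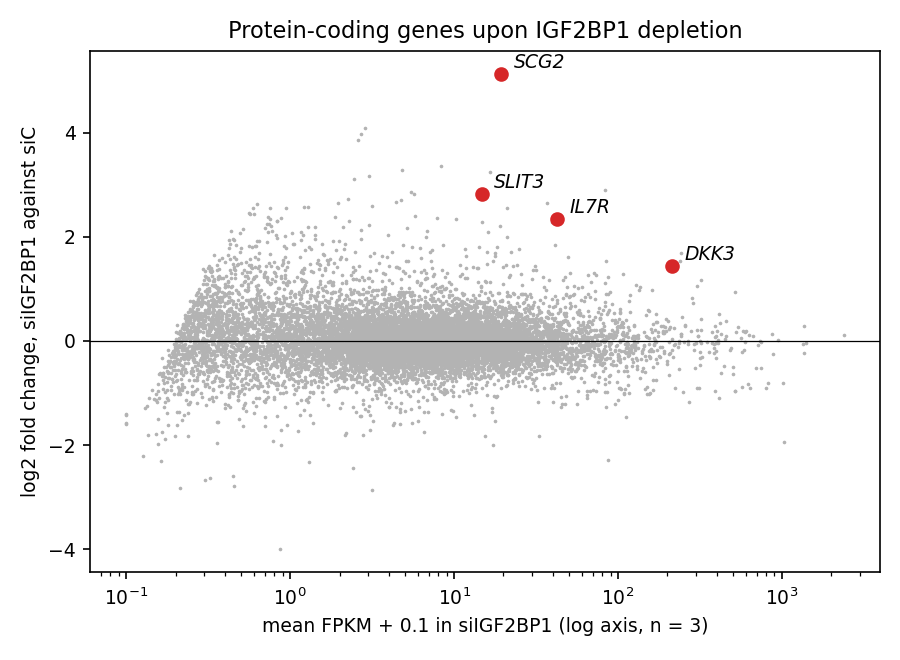
Log2 fold change in siIGF2BP1 against siC of 12512 protein-coding genes (vertical axis) by their mean FPKM + 0.1 in siIGF2BP1 (horizontal log axis). Grey points are genes and red points the 4 genes, of which SCG2 lies highest at 5.12 and DKK3, at 1.44, has the highest level.

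In order of level per RNA length, DKK3 was above IL7R, SLIT3 and SCG2 in siC, with means 9.47, 4.19 and 4.23 times those of the next gene. In siIGF2BP1 SCG2 moved above SLIT3, by 1.31 times, and IL7R stood 2.19 times above SCG2. In siSRF the order was that of siC. The libraries of genes next to each other in the order did not overlap in any group. As the percent of protein-coding genes with a lower mean level, SCG2 stood at 43.8% in siC, 89.4% in siIGF2BP1 and 42.5% in siSRF. SLIT3 stood at 53.3%, 85.8% and 52.8%, IL7R at 75.8%, 95.9% and 88.2%, and DKK3 at 97.8%, 99.4% and 97.9%, in the same order of groups. SCG2 thus passed from the lower part of the list to its upper part, whereas DKK3 was near its top in all groups.

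Of the 4 genes, IL7R was the one called upon SRF depletion, and differences between the genes were not tested. IL7R was at 19.4, 19.4 and 17.8 FPKM in siSRF, with a mean of 18.8 ± 0.926 FPKM (SD, n = 3). Each of these libraries was above each siC library and below each siIGF2BP1 library. The level was 2.27-fold that of siC, with a log2 fold change of 1.18, a standard error of 0.08 and a 95% interval from 0.99 to 1.37 (limma adjusted p = 0.000458, higher in 3 of 3 libraries). The 2-sided exact permutation test gave p = 0.1, the smallest that 3 libraries against 3 can give. IL7R ranked 146 of 12381 protein-coding genes by log2 fold change upon SRF depletion, and gained 10.6 FPKM. Leaving out any 1 library kept the log2 fold change between 1.11 and 1.22 and limma's adjusted p between 0.00177 and 0.00512.

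SCG2, SLIT3 and DKK3 did not pass the test upon SRF depletion. SCG2 was at 0.464, 0.202 and 0.249 FPKM in siSRF, from 9, 5 and 5 reads. These libraries overlapped those of siC, and the mean of 0.305 ± 0.140 FPKM (SD, n = 3) was 65.3% of that in siC. The log2 fold change was -0.51 with a standard error of 0.39 and a 95% interval from -1.45 to 0.42 (limma adjusted p = 0.418, exact permutation p = 0.3). At a total of 19 reads, a change of the size seen for IL7R but downward lies inside this interval, and an increase of that size lies outside it.

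SLIT3 was at 1.35, 1.61 and 2.14 FPKM in siSRF, 2 libraries below and 1 above the controls. The mean of 1.70 ± 0.404 FPKM (SD, n = 3) was 85.9% of that in siC. The log2 fold change was -0.23 with a standard error of 0.19 and a 95% interval from -0.69 to 0.23 (limma adjusted p = 0.461, exact permutation p = 0.4). Without single libraries it ranged from -0.40 to -0.09.

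DKK3 was at 87.4, 86.1 and 78.7 FPKM in siSRF, overlapping the controls. The mean of 84.1 ± 4.69 FPKM (SD, n = 3) was 107% of that in siC. The log2 fold change was 0.10 with a standard error of 0.06 and a 95% interval from -0.04 to 0.24 (limma adjusted p = 0.299, exact permutation p = 0.2). The interval for DKK3 was the narrowest of the 4 genes and that for SCG2 the widest. In all, 1 of the 4 genes was called higher and none lower by limma, where 6.85% of 21857 genes tested were called higher and 5.34% lower. Limma-voom, which called 12.7% of all genes higher and 10.7% lower, also called IL7R.

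**Figure D3:**
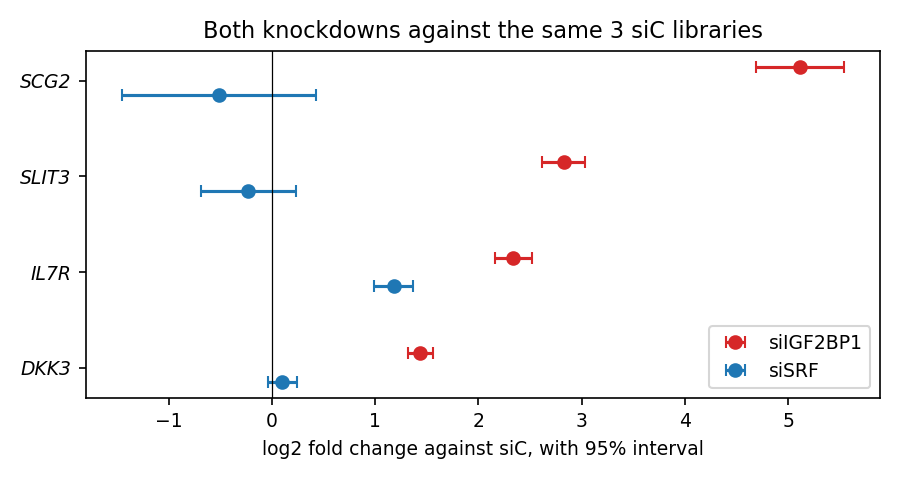
Log2 fold change against siC of each gene in siIGF2BP1 (red) and siSRF (blue), with 95% intervals from limma. Both use the same 3 siC libraries. Upon SRF depletion the interval of IL7R, 0.99 to 1.37, lies above 0 and those of the other 3 genes include 0.

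The genes with the most similar profile differed for IL7R and for the other members. Likeness was measured by Pearson's r of log2(FPKM + 0.1) over the 9 libraries, among 10379 protein-coding genes of at least 1 FPKM. It is a description: with 3 groups that lie apart, r mainly follows the group means. SCG2 was most like PHLDB2 (r = 0.997), THY1 (r = 0.995) and ATP8B1 (r = 0.993). THY1, a cell surface glycoprotein, had a mean of 11.4 FPKM in the siC libraries, rose to 41.3 FPKM upon IGF2BP1 depletion and was at 11.2 FPKM upon SRF depletion. ATP8B1, a phospholipid flippase, had means of 0.734, 8.22 and 0.485 FPKM in that order.

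SLIT3 was most like HEG1 (r = 0.995), COL4A2 (r = 0.994) and LPCAT2 (r = 0.993). COL4A2, a chain of basement membrane collagen, had a mean of 16.09 FPKM in both siC and siSRF and of 49.2 FPKM in siIGF2BP1. DKK3 was most like IQGAP1 (r = 0.996), GALNT2 (r = 0.995) and THBS1 (r = 0.994). THBS1, the matrix glycoprotein thrombospondin 1, had means of 44.3, 107.9 and 47.3 FPKM in the same order of groups. All of these genes had their highest mean in siIGF2BP1, which follows from picking them by r.

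IL7R was most like WDFY1 (r = 0.996), ITGAV (r = 0.996) and CCBE1 (r = 0.995), whose siSRF means lay between those of the other groups. ITGAV, the integrin alpha V chain, had a mean of 7.40 FPKM in siC, and 20.5 and 11.8 FPKM upon depletion of IGF2BP1 and SRF. Among the 4 genes themselves, r was 0.982 for SCG2 and SLIT3, 0.980 for SCG2 and DKK3 and 0.977 for SLIT3 and DKK3. With IL7R it was 0.813 for SCG2, 0.815 for SLIT3 and 0.891 for DKK3.

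The nearest protein-coding genes on either side, taken by position alone, moved less than the gene they flank upon IGF2BP1 depletion, with the exception of CAPSL, which codes for a calcium-binding protein and lies 24.7 kb from IL7R on the opposite strand. CAPSL had 1, 1 and 0 reads in siC and 25, 17 and 24 reads in siIGF2BP1. These correspond to means of 0.0877 FPKM and 2.47 FPKM. The ratio was 28.2, with an exact interval of 7.51 to 238 that covers counting error only, and the log2 fold change was 3.87 with a standard error of 0.42 (limma adjusted p = 0.00239). In siSRF, where IL7R was higher, CAPSL had 3 reads in all and was not called (log2 fold change 0.17, limma adjusted p = 0.90). Limma-voom also called CAPSL in siIGF2BP1. The CAPSL call was kept in 3 of 6 fits that left out a library, with limma adjusted p between 0.00391 and 0.0183. SPEF2, on the other side of IL7R at 38.1 kb, was not called in siIGF2BP1 by either fit. In siSRF its mean was 0.0991 FPKM against 0.304 FPKM in siC, with all libraries below the controls, the opposite direction to IL7R. It was not called there (log2 fold change -1.02, limma adjusted p = 0.0991), but limma-voom called it lower (-1.59, adjusted p = 7.36e-05).

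Next to SLIT3, SPDL1, a spindle protein gene 282.5 kb away, was higher in both depletions, by a log2 fold change of 0.42 in siIGF2BP1 (limma adjusted p = 0.00625) and 0.40 in siSRF (limma adjusted p = 0.00269), calls that held in 1 and 2 of 6 fits without a library. PANK3, 82.4 kb away, had log2 fold changes of 0.33 in siIGF2BP1 (limma adjusted p = 0.0571) and 0.35 in siSRF (limma adjusted p = 0.0284), with all depleted libraries above the controls, and was called higher in both by limma-voom alone (adjusted p = 0.000358 and 6.23e-05). USP47, which overlaps DKK3 on the opposite strand, had a log2 fold change of -0.02 in siIGF2BP1 (limma adjusted p = 0.909) and was higher by 0.40 in siSRF (limma adjusted p = 0.00479), a call lost in each of the 6 fits without a library. GALNT18, on the other side of DKK3, had a log2 fold change of -0.50 in siIGF2BP1, opposite to DKK3, with all libraries below the controls (limma adjusted p = 0.0188, and called lower by limma-voom with adjusted p = 0.00146). AP1S3, beside SCG2, had a log2 fold change of 0.64 in siSRF, with all libraries above the controls (limma adjusted p = 0.0191, and called higher by limma-voom with adjusted p = 0.00291). Neither fit called GALNT18 in siSRF, AP1S3 or KCNE4 in siIGF2BP1, or MICAL2 in either depletion, and KCNE4 was below the filter in siSRF.

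Within an intron of SLIT3 and on its strand, the unclassified transcript CTB.174D11.3 (ENSG00000279752, chr5:169012148-169013146) was singled out after its values were seen. It had 3, 1 and 3 reads in siC, 14, 21 and 21 reads in siIGF2BP1 and 3, 0 and 2 reads in siSRF. Like SLIT3, it was high in siIGF2BP1 only. Its log2 fold change was 2.57 in siIGF2BP1 with a standard error of 0.38 (limma adjusted p = 0.00715), against 2.83 for SLIT3. Limma-voom also called it. The call held in 1 of 6 fits without a library, and the 56 reads in siIGF2BP1 allow no closer comparison.

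The genes that act with the 4 proteins were described from 4 lists of 44 genes in all, without the 4 genes. Upon IGF2BP1 depletion 5 of the 30 tested were higher and 2 lower by limma, where 3.55% of all genes were higher and 3.57% lower, and their median log2 fold change was 0.11 against 0.02 for all genes tested. Upon SRF depletion 5 of 27 were higher and 3 lower, against 6.85% and 5.34% of all genes, with a median of 0.03 against 0.01. With single libraries left out, the counts were between 0 and 4 higher and 0 and 2 lower upon IGF2BP1 depletion and 3 or 4 higher and 1 or 2 lower upon SRF depletion. Without siIGF2BP1 replicate 3 they were 0 and 0, without siIGF2BP1 replicate 1 or 2 they were 2 and 1, without siC replicate 3 they were 3 and 1, and without siC replicate 1 there were 2 higher. Upon SRF depletion there were 3 higher without any single library except siC replicate 2 and 1 lower without siC replicate 3. All called genes named from the lists were also called by limma-voom.

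None of the few granin or processing genes tested was called by limma on log2 FPKM. The list of granins and prohormone processing had 11 genes, of which 5 were tested upon IGF2BP1 depletion and 4 upon SRF depletion, with none called by limma in either. Over all genes 3.55% were higher and 3.57% lower in siIGF2BP1, and 6.85% and 5.34% in siSRF. With so few genes tested, no call is near those shares. CHGA and PCSK1N had no read in any library, CHGB was near 0, and VGF, another granin, had means of 0.877 FPKM in siC and 0.326 FPKM in siIGF2BP1 (log2 fold change -1.27, limma adjusted p = 0.0712, and called lower by limma-voom). The median log2 fold change of the list was -0.26 upon IGF2BP1 depletion. PCSK2, a convertase that cuts prohormones in dense-core vesicles, was neither called nor abundant and is named with its values known. PCSK2 fell just under the filter and was not tested. It had 0, 1 and 0 reads in siC, 13, 6 and 13 reads in siIGF2BP1 and 0, 3 and 0 reads in siSRF. Each siIGF2BP1 library was above each control, with a ratio of 27.5 and an exact interval of 4.60 to 1121 for counting error. The widely used convertase FURIN and the amidating enzyme PAM were present, at 12.95 FPKM and 20.4 FPKM in siC. PAM was called by neither fit, while FURIN, with all siSRF libraries below the controls, had a log2 fold change of -0.46 in siSRF (limma adjusted p = 0.0105) and was called lower there by limma-voom (adjusted p = 8.55e-05).

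Neuroendocrine markers were at or near 0 beside SCG2. Of 4 markers, CHGA and NEUROD1 were at 0 in all 9 libraries, and the sum of the 4 was between 0.106 and 0.141 FPKM in siC, between 0.025 and 0.105 FPKM in siIGF2BP1 and between 0.0421 and 0.152 FPKM in siSRF. SCG2 alone exceeded this sum in every library of every group, with 0.356 to 0.613 FPKM in siC and 0.202 to 0.464 FPKM in siSRF. The margin was widest in siIGF2BP1, the group by whose values SCG2 was chosen.

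Among the ligands of the ROBO receptors, SLIT2 was called higher in both depletions, unlike SLIT3. SLIT2 was at 0.795, 1.02 and 0.797 FPKM in siC, at 2.61, 2.47 and 2.49 FPKM in siIGF2BP1 and at 3.25, 3.31 and 3.91 FPKM in siSRF. Every depleted library was above every control. The log2 fold change was 1.44 ± 0.16 (SE) in siIGF2BP1 (limma adjusted p = 0.00291) and 1.89 ± 0.16 (SE) in siSRF (limma adjusted p = 0.00086), the first call kept in 1 and the second in all 6 of the 6 fits without a library. SLIT1 was near 0. In siC SLIT3 had the higher level of the pair per RNA length, and in siSRF SLIT2 did.

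The receptors were measured and not called. ROBO1 had a mean of 5.52 FPKM in siC and a log2 fold change of 0.09 in siIGF2BP1 and 0.21 in siSRF, and ROBO4, of vessel cells, had 3.93 FPKM in siC with changes of 0.08 and 0.03. Both heparan sulfate proteoglycans of the list were lower in siSRF, and SDC1 in siIGF2BP1 as well. SDC1, syndecan-1, fell from 58.6 FPKM in siC to 37.6 FPKM in siIGF2BP1 (log2 fold change -0.64, limma adjusted p = 0.0019) and to 30.7 FPKM in siSRF (-0.93, limma adjusted p = 0.000458). GPC1, glypican-1, fell in siSRF only by the test, from 1.72 FPKM to 0.274 FPKM (-2.30, limma adjusted p = 0.00223), with 1.2 FPKM in siIGF2BP1 (-0.48, limma adjusted p = 0.165). The difference between the depletions was not tested. SDC1 kept its call in 2 of 6 fits without a library in siIGF2BP1 and in all 6 in siSRF, and GPC1 in 4 of 6. The whole list had 1 of 9 tested genes higher and 1 lower in siIGF2BP1, and 1 of 8 higher and 2 lower in siSRF. Over all genes 3.55% were higher and 3.57% lower in siIGF2BP1, and 6.85% and 5.34% in siSRF. The effectors SRGAP1 and SRGAP2 were called in siSRF by limma-voom alone, SRGAP1 higher (adjusted p = 6.2e-05) and SRGAP2 lower (adjusted p = 0.00166).

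The partner chains of IL7R were at or near 0. IL2RG, the common gamma chain that completes the IL-7 receptor, had 1 read in the 9 libraries together, and CRLF2, the chain that completes the TSLP receptor, also had 1 read. JAK3, the kinase bound to IL2RG, had between 0 and 3 reads per library. JAK1, the kinase bound to IL7R itself, was abundant, with a mean of 15.8 FPKM in siC, and 26.5 and 20.98 FPKM upon depletion of IGF2BP1 and SRF. JAK1 was called higher in both, by a log2 fold change of 0.74 (limma adjusted p = 0.00372) and 0.41 (limma adjusted p = 0.00691), each kept in 1 of 6 fits without a library.

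Of the ligands, IL7 was at 1.47 FPKM in siC and was not called in either depletion. TSLP had means of 0.559 ± 0.128, 0.773 ± 0.198 and 1.74 ± 0.269 FPKM (SD, n = 3) in siC, siIGF2BP1 and siSRF. It was called higher in siSRF alone (log2 fold change 1.49, limma adjusted p = 0.00683), a call lost in each of the 6 fits without a library, where limma's adjusted p was between 0.0145 and 0.0340.

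The signal transducers and feedback inhibitors moved in different directions. SOCS3, an inhibitor of cytokine receptors, had a mean of 3.63 FPKM in the controls, of 8.65 FPKM in siIGF2BP1 (log2 fold change 1.23, limma adjusted p = 0.00201) and of 8.28 FPKM in siSRF (1.17, limma adjusted p = 0.000801). SOCS1, another such inhibitor, had 0.594 ± 0.0275 FPKM in the controls, 2.61 ± 0.371 FPKM in siIGF2BP1 (1.95, limma adjusted p = 0.00148) and 0.562 ± 0.296 FPKM in siSRF (-0.16, limma adjusted p = 0.811). STAT5B, the transducer best known downstream of IL-7, fell in siIGF2BP1 from 8.25 to 4.88 FPKM (-0.75, limma adjusted p = 0.0017), and STAT3 rose there from 7.29 to 11.32 FPKM (0.63, limma adjusted p = 0.00172). Neither was called in siSRF. JAK2 and STAT5A were called by limma-voom alone, and in siSRF only. JAK2 rose there from 2.26 to 3.68 FPKM (0.68, limma adjusted p = 0.0142, limma-voom adjusted p = 9.85e-05). STAT5A fell there from 0.922 to 0.441 FPKM (-0.96, limma adjusted p = 0.0835, limma-voom adjusted p = 0.00299). Without single libraries SOCS3 kept its call in 3 of 6 fits in siIGF2BP1 and in all 6 in siSRF, SOCS1 in 4, STAT5B in 5 and STAT3 in 4. In the list as a whole 4 of 11 tested genes were higher and 1 lower in siIGF2BP1, with a median log2 fold change of 0.40. Over all genes 3.55% were higher and 3.57% lower there, with a median of 0.02. In siSRF 3 of 10 were higher and none lower, with a median of 0.32. Over all genes 6.85% were higher and 5.34% lower there, with a median of 0.01.

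Lymphocyte markers were at or near 0 beside IL7R. PTPRC, CD2 and CD3E were at 0 in all 9 libraries, and the 6 markers summed to between 0.0375 and 0.207 FPKM in siC, between 0 and 0.140 FPKM in siIGF2BP1 and between 0 and 0.302 FPKM in siSRF.

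Of the relatives and receptors of DKK3, 5 were tested upon IGF2BP1 depletion and none was called. Over all genes 3.55% were higher and 3.57% lower, and no call among so few genes is near those shares. DKK1, a secreted Wnt inhibitor, was the most abundant family member in siC, with 165 FPKM against 78.5 FPKM for DKK3 per RNA length. In siIGF2BP1 it was at 189 FPKM (log2 fold change 0.19, limma adjusted p = 0.0518, and called higher by limma-voom), so that DKK3, at 212.6 FPKM, had the higher mean there. In siSRF DKK1 rose to 235 FPKM (0.51, limma adjusted p = 0.000922, kept in all 6 fits without a library), whereas DKK3 did not pass the test. DKK4 and DKKL1 had no read in any library, and DKK2 had a mean of 2.06 FPKM in siC and was not called in siIGF2BP1 by either fit. In siSRF DKK2 had a mean of 1.07 FPKM, with all libraries below the controls (log2 fold change -0.89, limma adjusted p = 0.0366, and called lower by limma-voom with adjusted p = 0.000528).

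LRP5, a Wnt co-receptor to which DKK1 binds, fell in siSRF from 4.36 to 2.47 FPKM (log2 fold change -0.79, limma adjusted p = 0.00488, kept in 1 of 6 fits without a library). LRP6, the related co-receptor, was at 8.79 FPKM in siC and was not called. In siSRF 1 of 5 tested genes of the list was called higher and 1 lower, where 6.85% of all genes were higher and 5.34% lower. The list had 5 genes tested in each depletion, with a median log2 fold change of 0.19 in siIGF2BP1 and -0.38 in siSRF. For all genes tested the medians were 0.02 and 0.01.

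**Figure D4:**
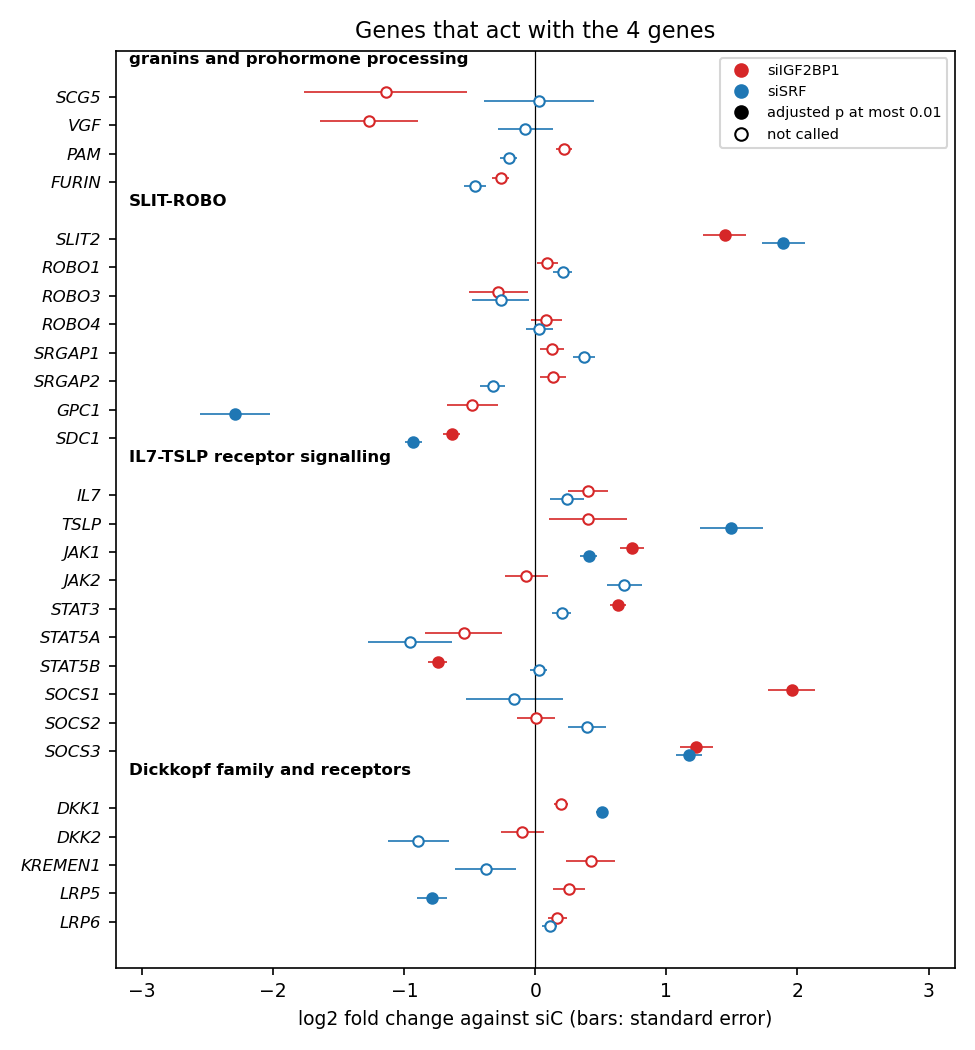
Log2 fold change against siC, with standard errors, of the list genes tested in both depletions, in siIGF2BP1 (red) and siSRF (blue). Filled points are called by limma at an adjusted p of at most 0.01. SLIT2, JAK1 and SOCS3 are called higher and SDC1 lower in both, and none of the few granin or processing genes shown is called.

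Markers of other cell types moved with the 4 genes in part. Of 4 fibroblast markers, LUM was at 0 in all libraries and DCN near 0, while COL1A1 and PDGFRA were called higher in siIGF2BP1, and the sum of the list lay between 5.70 and 6.86 FPKM in siC and between 7.75 and 9.37 FPKM in siSRF, against 23.1 to 30.8 FPKM in siIGF2BP1. In siSRF COL1A1 and PDGFRA were called higher by limma-voom alone (adjusted p = 0.00673 and 0.000745). Of 3 endothelial markers, PECAM1 and VWF were low and CDH5 was called higher in siIGF2BP1, with a sum of 8.38 to 10.98 FPKM in siC and 7.71 to 8.49 FPKM in siSRF, against 14.5 to 16.4 FPKM in siIGF2BP1. PECAM1 was called lower in siSRF by limma-voom alone (adjusted p = 0.00155). The 2 mesenchymal markers summed to between 1073 and 1091 FPKM in siC, and to 879 to 960 and 867 to 916 FPKM upon depletion of IGF2BP1 and SRF. This sum is mostly VIM, which was called lower in siSRF (limma adjusted p = 0.0091) and, by limma-voom alone, in siIGF2BP1 (adjusted p = 2.62e-08). CDH2 went the other way, from 25.4 FPKM in siC to 40.1 FPKM in siIGF2BP1 (log2 fold change 0.66, limma adjusted p = 0.00282). In siSRF CDH2 had a mean of 29.8 FPKM, with all libraries above the controls. That rise was called by limma-voom alone (log2 fold change 0.23, adjusted p = 0.00863). The 6 epithelial markers summed to 149 to 161, 192 to 220 and 216 to 222 FPKM in siC, siIGF2BP1 and siSRF, with members that differed. KRT7 was called higher in both depletions, with means of 101.2, 151.9 and 126.7 FPKM in the same order of groups, while KRT18 was at 43.4, 41.8 and 81.7 FPKM in that order and was called higher in siSRF alone (limma adjusted p = 0.000329). KRT8 was called higher in siIGF2BP1 alone (limma adjusted p = 0.00455). The 3 Mullerian markers stayed under 0.4 FPKM in every library. The part of these markers in the levels of SCG2, SLIT3, IL7R and DKK3 was not tested.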

How the data were processed

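RNA of 9 ES-2 libraries (siC, siIGF2BP1 and siSRF, 3 each) was sequenced after ribosomal RNA depletion with a directional kit. Per the processing notes of the submitters, reads were trimmed (cutadapt 1.14), mapped to hg38 (HISAT2 2.1.0), assigned to genes (featureCounts 1.5.3) and scaled by the authors (edgeR 3.18.1). The strand setting of the counting is not given in the sources used here. The values deposited by the authors are FPKM per library after TMM scaling, in 2 tables with identical siC values. To recover reads, values were multiplied by gene length and divided by the smallest positive product of their library, taken as a single read. By this, 100% of values were whole numbers within 0.001. The authors' columns of fold changes, p-values and FDR were not used.

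Groups and replicate numbers were taken from the sample labels. Each depletion was compared with siC by limma-trend (limma 3.58.1, R 4.3.3) on log2(FPKM + 0.1), a scale that understates changes of low genes, keeping genes whose mean reached 0.1 FPKM. Benjamini-Hochberg adjustment covered every gene kept, with calls at 0.01. Tested on simulated data, limma-trend made false calls among genes with few reads, and limma-voom made fewer. Limma-voom on recovered reads, other pseudocounts, filters, scalings, thresholds, a replicate block and leaving out single libraries were tried as alternatives.

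The 4 genes and the lists were chosen with earlier results of these data known. Named were list genes called in either depletion or abundant, the 3 genes most like each of the 4, and the neighbours by position. Other list genes, PCSK2 and VGF among them, were also named with their values known. Protein sequences and promoters of SCG2 and DKK3 were not used here. A further neuroendocrine marker of the list is not reported here.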

Additional observations from a re-analysis of the deposited data

How the results depend on the processing

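The directions of the 4 genes upon IGF2BP1 depletion and the call of IL7R upon SRF depletion held under every alternative run, and SCG2, SLIT3 and DKK3 were not called upon SRF depletion under any of them at an adjusted p of 0.01. With a pseudocount of 1, the log2 fold change in siIGF2BP1 was 3.79 for SCG2 and 2.39 for SLIT3, which follows from the larger constant. With GC content and gene length removed, an alternative chosen after seeing the data, DKK3 in siSRF had a log2 fold change of 0.25 (limma adjusted p = 0.0278) and would be called at a threshold of 0.05. At a minimum mean of 1 FPKM, SCG2 was not tested in siSRF. Leaving out single libraries gave log2 fold changes in siIGF2BP1 of 4.97 to 5.29 for SCG2, 2.79 to 2.90 for SLIT3, 2.27 to 2.38 for IL7R and 1.41 to 1.48 for DKK3, and in siSRF of -0.78 to -0.33, -0.40 to -0.09, 1.11 to 1.22 and 0.07 to 0.15 in that order.

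The count of list genes called lower in siSRF, 3, was 7 with limma-voom and 5 at an adjusted p of 0.05, and the 5 called higher in siSRF were 3 with GC content and gene length removed. The cause was not tested. Without single libraries, which leaves fewer samples, the counts in siIGF2BP1 ranged from 0 to 4 higher and from 0 to 2 lower, and those in siSRF from 3 to 4 higher and from 1 to 2 lower. Over all genes, limma-voom called 1914 higher and 1891 lower in siIGF2BP1 and 2780 and 2343 in siSRF, against 792, 796, 1498 and 1167 by limma on log2 FPKM. At 0.05 these were 1760, 1836, 2899 and 2306, and 1309 genes were lower in siIGF2BP1 with all 9 libraries in one fit. Without single libraries they fell to between 212 and 420, 224 and 329, 464 and 1123, and 482 and 673.

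Same-numbered libraries did not deviate together, with correlations of their deviations between -0.02 and 0.02. No pairing by number was therefore visible in the values. Whether same-numbered libraries were prepared together is not given by the labels and cannot be told from these correlations. With the replicate block, which uses up residual degrees of freedom, list genes called were 0 higher and 0 lower in siIGF2BP1 and 0 higher and 1 lower in siSRF, all genes called were 60, 31, 257 and 244 in the order above, and IL7R in siSRF was still called (limma adjusted p = 0.00924). Of 23 other calls of named genes, the block lost 19, among them CAPSL (limma adjusted p = 0.0203), SPDL1 (0.0305 and 0.0235), USP47 (0.0235) and CTB.174D11.3 (0.0431), and kept IGF2BP1 in siIGF2BP1, SRF in both and SDC1 in siSRF. Depth limits SCG2 in siC and siSRF, CAPSL, PCSK2 and the precursor of miR-218.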
